A study of Homo sapiens with 18 samples.

Results

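The comparison set control guide 2 (2 libraries) against control guide 1 (2 libraries) in hiF-T cells, which made up 4 of the 18 RNA-seq libraries of the series. The members were chosen by their titles, which call these guides backbone, and the spread between libraries of a guide was taken from all 18 libraries. hiF-T is a line of human fibroblast-like cells from BJ skin fibroblasts in which hTERT, the catalytic subunit of telomerase, can be induced. The series studied CRISPR knockdown of single genes in these cells, and the other 14 libraries carried guides against CDKN1A (guides 1 and 2), KDM1A (guides 2 and 3) or SPP1 (guides 1, 2 and 3), with 2 biological replicates for each guide. Cells of both control guides had the genotype given as WT and the treatment given as control guide, and no other agent was named. Whether the control guides are non-targeting, what sequence they carry, how the guides lower mRNA and whether hTERT was induced are not stated in the labels. TERT mRNA was abundant in all 18 libraries, at 25218 to 42169 counts. The labels also do not state whether the biological replicates were separate transductions or cultures, so p-values measure the spread between these libraries only. Each guide was sampled as 2 libraries, and a difference between guides cannot be told apart from one between the cell populations that received them.

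A guide RNA directs a Cas protein to a matching site in DNA, and control guides are used to show what delivery of guide and protein alone does to the cells. The gene groups that follow are well known in fibroblasts. Immediate early genes such as FOS, FOSB and JUNB encode transcription factors of the AP-1 family, and their mRNAs appear within minutes of a growth factor, calcium or stress signal without new protein synthesis and decay quickly. Extracellular matrix genes encode the collagens, glycoproteins and cross-linking enzymes that fibroblasts secrete, and several of them respond to TGF-beta, to stretch and to serum.

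Poly(A)-selected RNA was sequenced, and the estimated counts of transcripts were summed per gene. Control libraries held 13.39 to 15.69 M estimated counts (M stands for 1e6) and the 18 libraries together spanned 11.91 to 17.02 M. Of 35544 genes, 13968 passed the filter on low counts and were tested. A gene was called when the Benjamini-Hochberg adjusted p of edgeR's quasi-likelihood test was under 0.05. Levels are in CPM, counts per 1e6 counts of the library after TMM scaling, so they compare libraries for 1 gene and not different genes with each other. The 2 libraries of SPP1 guide 3 had, by a narrow margin, the largest difference between replicates of the 9 guides (root mean square 0.503 log2 CPM over genes, against 0.399 to 0.490 in the others). Leaving both out lowered the common dispersion, the spread between libraries of a guide over all genes, from 0.00477 to 0.00329. Counts of calls are therefore also given without them. Fibroblast markers were at high levels in the control libraries, with COL1A1 at 4558 and 4041 CPM with control guide 2, against 4482 and 4848 CPM with control guide 1, and VIM at 6830 and 7055 CPM, against 6856 and 6714 CPM. THY1, a surface marker of many fibroblasts, had at most 3 counts in a control library and was not tested, and PDGFRA was at 9.08 and 8.47 CPM with control guide 2, against 5.19 and 6.48 CPM with control guide 1. The other 12 of the 13 fibroblast markers were tested. By edgeR 0 of them were called (6 at unadjusted p under 0.05), and DESeq2 called PDGFRB, at 54.8 and 49.3 CPM with control guide 2, against 62.2 and 72.5 CPM with control guide 1.

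Control guide 2 cells differed from control guide 1 cells in a limited set of genes, among them AP-1 factors, collagens and keratins. FOSB, FOS, KRT81 and NGEF were over 3-fold lower with control guide 2, the WNT antagonist DKK1 and the anchoring collagen COL7A1 were over 2-fold lower, and the hair keratin KRT34 and the fibrillar collagen COL11A1 were over 2-fold higher. The comparison called 185 of 13968 genes (1.32%), 86 of them higher (0.616% of tested genes) and 99 lower (0.709%) with control guide 2. Of the 185, 52 differed by at least 1.5-fold and 11 by at least 2-fold, and 184 were protein-coding. Without a correction for multiple tests, 1961 genes (14%) had p under 0.05. The libraries of the 2 guides did not overlap in any of the 185 called genes, which was also so for 42.7% of all tested genes. With 2 libraries against 2, a two-sided exact permutation test cannot go below p = 0.333, so calls rest on the fit across all genes. In these bulk samples fewer cells of a type and less RNA per cell cannot be told apart.

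**Figure D1:**
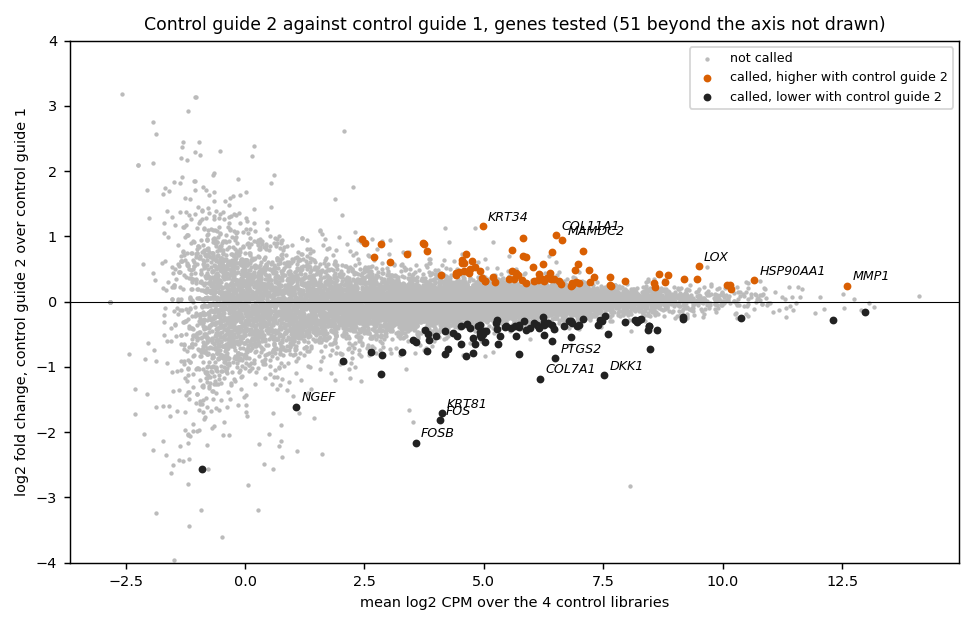
Log2 fold change of control guide 2 over control guide 1 (y axis) against the mean log2 CPM of the 4 control libraries (x axis), 1 point for each tested gene, with the 86 genes called higher in orange, the 99 called lower in black and the rest in grey. The 51 genes beyond the axis, the called THSD8 (log2 9.24) among them, are not drawn, and FOSB, FOS, KRT81 and NGEF lie lowest among the labelled genes.

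The count of calls depended on single libraries. It was 68 and 53 without replicates 1 and 2 of control guide 1, 39 and 26 without those of control guide 2, 118 without either library of KDM1A guide 2, 122 and 120 without replicates 1 and 2 of KDM1A guide 3, 123 without replicate 2 of CDKN1A guide 2, and 454 and 444 without replicates 1 and 2 of SPP1 guide 3. With both SPP1 guide 3 libraries left out it was 454, a set that held all 185. With an offset for transcript length 27 genes were called, and with the 4 control libraries alone 75. Of the 43 called genes named here, 11 kept the call whichever of the 18 libraries was left out. They were COL11A1, NEFM, MAMDC2, ATP8A1, GPRC5A, PTX3 and LOX among the higher genes, and ITPR3, PTGS2, COL7A1 and FOS among the lower ones. Of these 11, ATP8A1, GPRC5A, PTGS2 and COL7A1 lost the call with the offset for transcript length. All 43 kept their direction under each alternative run. The control libraries of the 2 guides did not overlap in any of them, so leaving out 1 library could hardly reverse a direction.

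The AP-1 genes FOS, FOSB and JUNB had less mRNA with control guide 2, while most of the immediate early list did not pass the test. FOS, a founding member of AP-1, was 3.53-fold lower, its close relative FOSB was 4.48-fold lower, and JUNB was 1.57-fold lower. Of 25 listed immediate early genes 23 were tested, and 3 were called lower and 0 higher. The unadjusted p of edgeR was under 0.05 in 11 of the 23, beside 14% of all tested genes. The fitted change was below 0 in 17 of the 23, with a median log2 fold change of -0.22, where the median over all tested genes was -0.0018.

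FOS (chromosome 14, 75278774 to 75282230, plus strand, GRCh38) measured 9.35 and 8.47 CPM with control guide 2, against 31.3 and 31.8 CPM with control guide 1. The log2 fold change was -1.82 ± 0.12 (SE; edgeR adjusted p 4.67e-06). The 14 knockdown libraries ran from 5.80 to 12.4 CPM with a median of 7.82 CPM, so all of them lay far below both control guide 1 libraries and on either side of the control guide 2 libraries. FOSB (chromosome 19, 45467995 to 45475179, plus strand) measured 5.17 and 5.90 CPM with control guide 2, against 22.8 and 26.8 CPM with control guide 1 (log2 -2.17 ± 0.36, edgeR adjusted p 0.00837). The knockdown libraries held 2.06 to 10.3 CPM of FOSB, median 3.56 CPM, again below both control guide 1 libraries. JUNB (chromosome 19, 12791496 to 12793315, plus strand) measured 19.0 and 17.3 CPM with control guide 2, against 28.4 and 28.6 CPM with control guide 1 (log2 -0.65 ± 0.09, edgeR adjusted p 0.00355). Its knockdown libraries spanned 16.1 to 23.5 CPM, median 17.9 CPM, which is likewise below both control guide 1 libraries. Of the 18 fits that left out 1 library, the FOSB call was lost in 3 and the JUNB call in 1, and DESeq2 called FOS and JUNB but not FOSB.

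The stretches before the starts of these 3 genes are shown because the genes share a motif there. They are the 250 bases before the RefSeq start on GRCh38.p14, plus strand, from chr14:75278578-75278827 (FOS), chr19:45467746-45467995 (FOSB) and chr19:12791236-12791485 (JUNB), with the CRE half-site TGACG in capitals. This is the core of the element that CREB and ATF proteins bind.
FOS: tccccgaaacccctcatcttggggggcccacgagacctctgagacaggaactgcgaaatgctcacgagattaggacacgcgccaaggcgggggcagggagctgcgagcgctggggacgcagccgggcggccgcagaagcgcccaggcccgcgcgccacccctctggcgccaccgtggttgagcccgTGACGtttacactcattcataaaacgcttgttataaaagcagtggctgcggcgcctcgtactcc
FOSB: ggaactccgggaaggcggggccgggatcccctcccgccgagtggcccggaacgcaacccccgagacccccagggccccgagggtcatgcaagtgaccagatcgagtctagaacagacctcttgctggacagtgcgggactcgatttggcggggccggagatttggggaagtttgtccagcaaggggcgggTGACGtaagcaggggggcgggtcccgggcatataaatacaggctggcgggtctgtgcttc
JUNB: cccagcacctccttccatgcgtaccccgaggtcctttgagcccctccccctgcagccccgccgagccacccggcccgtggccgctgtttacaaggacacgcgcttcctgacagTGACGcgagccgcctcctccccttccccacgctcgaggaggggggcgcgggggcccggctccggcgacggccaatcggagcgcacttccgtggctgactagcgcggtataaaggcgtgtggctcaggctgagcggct
Each window held 1 TGACG, on the given strand, at 64 to 60 bases before the start in FOS, 60 to 56 in FOSB and 137 to 133 in JUNB. The AP-1 site TGANTCA and the CArG box, the element bound by SRF, had 0 matches in these windows. Bases outside the windows were not searched, so sites farther from the starts could not be seen. On both strands, TGACG was in 21.2% of 35116 promoter windows of this length, TGANTCA in 6.57% and the CArG box in 1.16%, and among the 15443 windows of tested genes in 27.3%, 4.55% and 1.13%. These matches describe letters only.

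Other immediate early genes were measured well and did not pass. JUN, the classic partner of FOS in AP-1, was at 245 and 229 CPM with control guide 2, against 302 and 276 CPM with control guide 1 (log2 -0.29 ± 0.19, adjusted p 0.551). EGR1, a zinc finger factor induced by serum, was at 87.4 and 79.1 CPM, against 90.1 and 109 CPM with control guide 1 (adjusted p 0.491). JUND was at 47.9 and 45.4 CPM with control guide 2, against 64.0 and 60.5 CPM with control guide 1, without overlap but with an adjusted p of 0.164. KLF10, a TGF-beta induced zinc finger factor, pointed the other way, at 102 and 106 CPM with control guide 2, against 64.0 and 64.2 CPM with control guide 1 (adjusted p 0.213). MYC differed little, at 77.3 and 79.1 CPM with control guide 2, against 79.6 and 78.1 CPM with control guide 1.

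**Figure D2:**
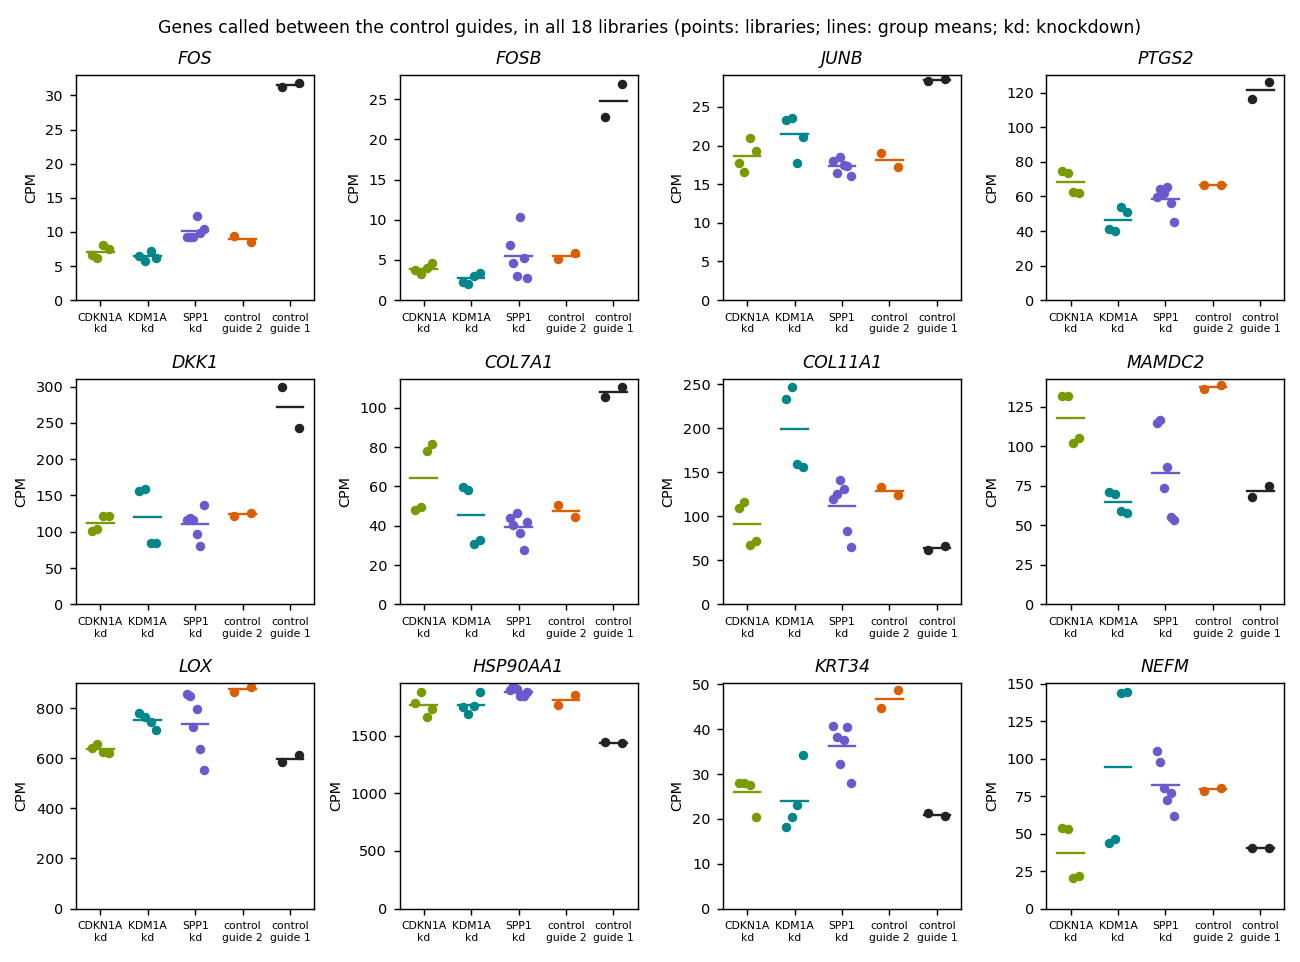
CPM (y axis, from 0) of 12 genes called between the control guides in each of the 18 libraries, grouped as CDKN1A, KDM1A and SPP1 knockdown (kd), control guide 2 and control guide 1, with points for libraries and lines for group means. For FOS, FOSB, JUNB, PTGS2, DKK1 and COL7A1 the 14 knockdown libraries all lie below both control guide 1 libraries, while for MAMDC2, NEFM and COL11A1 they spread with the guide.

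DKK1, DACT1 and PTGS2, which act in WNT and prostaglandin signalling, had less mRNA with control guide 2. DKK1, a secreted WNT antagonist, measured 122 and 126 CPM with control guide 2, against 299.9 and 243 CPM with control guide 1 (log2 -1.13 ± 0.16, adjusted p 0.00353). The knockdown libraries held 80.01 to 159 CPM, median 116 CPM, below both control guide 1 libraries. DACT1, an intracellular modulator of WNT signalling, was at 4.91 and 4.74 CPM with control guide 2, against 10.2 and 10.5 CPM with control guide 1 (log2 -1.10 ± 0.16, adjusted p 0.00397), and at 2.39 to 7.97 CPM in the knockdown libraries. DESeq2 did not call DACT1. Of the 12 listed NOTCH and WNT targets 8 were tested, and DKK1 was the single call (median log2 -0.18). PTGS2, the inducible cyclooxygenase of prostaglandin synthesis, measured 66.6 and 66.6 CPM with control guide 2, against 117 and 126 CPM with control guide 1 (log2 -0.87 ± 0.08, adjusted p 4.64e-05). At 40.2 to 74.9 CPM, median 60.9 CPM, the knockdown libraries held less PTGS2 than either control guide 1 library. It was the 1 call, lower, among 14 tested inflammatory cytokine and chemokine genes, whose median was 0.10.

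Further falls among the 12 largest were ITPR3, an inositol trisphosphate receptor that releases calcium from the endoplasmic reticulum, at 18.4 and 18.5 CPM with control guide 2, against 30.7 and 34.97 CPM with control guide 1 (adjusted p 0.00216). LBH, a transcriptional regulator known as a WNT target, was at 13.4 and 14.1 CPM, against 24.2 and 23.9 CPM with control guide 1 (adjusted p 0.00475). NGEF, a guanine nucleotide exchange factor of the ephexin family, was low in both, at 1.13 and 1.09 CPM with control guide 2, against 3.69 and 3.13 CPM with control guide 1 (log2 -1.61 ± 0.34, adjusted p 0.0362). Its knockdown libraries ranged from 0.927 to 4.41 CPM and so covered the levels of both control guides. The NGEF call was lost with an offset for transcript length, with a replicate block and with the 4 control libraries alone. PLPP4, a lipid phosphatase, had a log2 fold change of -0.81 ± 0.16 (adjusted p 0.0250) and LYSMD4 of -0.91 ± 0.21 (adjusted p 0.0460). DESeq2 did not call NGEF, PLPP4 or LYSMD4.

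Matrix genes split, with single collagens, glycoproteins and an enzyme moving in opposite directions. Of 31 extracellular matrix genes, all tested, 2 were called higher and 2 lower, with a median log2 fold change of 0.03. LOX, the lysyl oxidase that cross-links collagen and elastin, measured 864.9 and 884 CPM with control guide 2, against 583 and 614 CPM with control guide 1 (log2 0.55 ± 0.06, adjusted p 0.000583). The knockdown libraries ran from 553 to 857 CPM with a median of 718 CPM, below both control guide 2 libraries and overlapping those of control guide 1. FBN2, a fibrillin of elastic microfibrils, was at 422 and 410.1 CPM with control guide 2, against 320.3 and 363 CPM with control guide 1 (adjusted p 0.0486). TNC, the matricellular protein tenascin C, was lower, at 352 and 328 CPM, against 432 and 483 CPM with control guide 1 (log2 -0.43 ± 0.06, adjusted p 0.00355). COL6A3, a chain of the microfibrillar collagen VI, was at 4702 and 4481 CPM with control guide 2, against 5281 and 5852 CPM with control guide 1 (adjusted p 0.0417).

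Outside that list, COL11A1, a chain of a fibril-nucleating collagen, measured 133 and 124 CPM with control guide 2, against 61.2 and 66.0 CPM with control guide 1 (log2 1.02 ± 0.09, adjusted p 4.64e-05). COL7A1, which forms the anchoring fibrils below epidermis, measured 50.5 and 44.7 CPM with control guide 2, against 106 and 111 CPM with control guide 1 (log2 -1.18 ± 0.13, adjusted p 0.000481). MAMDC2, a secreted proteoglycan, was at 137 and 139 CPM with control guide 2, against 67.9 and 74.95 CPM with control guide 1 (log2 0.94 ± 0.07, adjusted p 4.67e-06). For these genes the knockdown libraries were not of one kind: COL11A1 ran from 65.6 to 247 CPM, COL7A1 from 27.6 to 81.4 CPM and MAMDC2 from 53.2 to 132 CPM, the last all below both control guide 2 libraries. PTX3, a soluble pattern recognition protein that also binds matrix, was at 174 and 178 CPM with control guide 2, against 105 and 102 CPM with control guide 1 (log2 0.77 ± 0.10, adjusted p 0.00142).

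Among 15 tested matrix proteases and inhibitors the collagenase MMP1 was the 1 call, higher at 6654 and 6995 CPM with control guide 2, against 5924 and 5607 CPM with control guide 1 (log2 0.24 ± 0.05, adjusted p 0.0189). Its knockdown libraries lay at 6003 to 11990 CPM, above both control guide 1 libraries. TGF-beta targets had 2 lower calls and 0 higher in 15, with a median of 0.01. The unadjusted p of edgeR was under 0.05 in 9 of the 15, beside 14% of all tested genes. CCN2, a connective tissue growth factor, was at 1228 and 1230 CPM with control guide 2, against 1455 and 1485 CPM with control guide 1 (adjusted p 0.0306). Its level was lower still in all 14 knockdown libraries, at 704 to 1191 CPM. CCN2 and AJUBA, a LIM protein of cell junctions (log2 -0.26 ± 0.06, adjusted p 0.0378), were the 2 lower calls among 15 YAP and TEAD targets, where 0 were higher and the median was -0.03.

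Contractile and SRF target genes gave 1 call each way in 18 (median -0.02). The unadjusted p of edgeR was under 0.05 in 11 of the 18, beside 14% of all tested genes. ACTA2, the smooth muscle actin of myofibroblasts, was at 113 and 110 CPM with control guide 2, against 68.2 and 63.1 CPM with control guide 1 (log2 0.76 ± 0.18, adjusted p 0.0486). The knockdown libraries varied about this gap, at 31.6 to 307 CPM. SRF, the transcription factor that binds the CArG box, was lower, at 77.6 and 75.1 CPM with control guide 2, against 96.9 and 98.9 CPM with control guide 1 (log2 -0.36 ± 0.06, adjusted p 0.0139), and at 68.4 to 85.8 CPM in the knockdown libraries, below both control guide 1 libraries. ACTA2 overlaps FAS, which lies on the opposite strand of chromosome 10, and no source used here states whether the counting used strand.

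The hair keratin KRT34 and the neurofilament gene NEFM were higher with control guide 2, and the hair keratin KRT81 was lower. KRT34, a type I hair keratin, was at 44.7 and 48.8 CPM with control guide 2, against 21.4 and 20.6 CPM with control guide 1 (log2 1.16 ± 0.18, adjusted p 0.00632). KRT81, a type II hair keratin, was at 9.48 and 9.56 CPM with control guide 2, against 34.3 and 28 CPM with control guide 1 (log2 -1.71 ± 0.26, adjusted p 0.00515). Its near copy KRT86 can share reads with it, and summed with it the level was 9.81 and 10.3 CPM with control guide 2, against 35.6 and 29.5 CPM with control guide 1. By library, KRT81 split the KDM1A guides, at 33.1 and 34.4 CPM with KDM1A guide 2 and 6.63 and 8.43 CPM with KDM1A guide 3. NEFM, a neurofilament subunit, was at 78.2 and 80.6 CPM with control guide 2, against 40.3 and 40.3 CPM with control guide 1 (log2 0.98 ± 0.09, adjusted p 4.64e-05), and from 20.6 to 144 CPM in the knockdown libraries.

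Levels of the G protein signalling genes GPRC5A, an orphan receptor induced by retinoic acid, RGS5, a brake on G protein alpha subunits, and CHRM3, a muscarinic acetylcholine receptor, were higher with control guide 2. GPRC5A was at 62.7 and 64.0 CPM with control guide 2, against 33.2 and 40.0 CPM with control guide 1 (adjusted p 0.00265). RGS5 was at 17.7 and 18.7 CPM, against 9.83 and 11.4 CPM with control guide 1 (adjusted p 0.0189), and CHRM3 at 18.2 and 17.8 CPM, against 9.15 and 10.3 CPM (adjusted p 0.0226). The other rises among the 12 largest were the phospholipid flippase ATP8A1 (log2 0.91 ± 0.12, adjusted p 0.00180), the zinc finger factor KLF11 (0.89 ± 0.21, 0.0486), the keratin-associated protein gene KRTAP2-3 (0.88 ± 0.20, 0.0457) and NMRAL2P (0.96 ± 0.18, 0.0167). NMRAL2P is annotated as a transcribed pseudogene, and KRTAP2-3 belongs to a family of near copies, so both values are uncertain.

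The remaining lists held few calls. Of 26 p53 targets 2 were called lower and 0 higher, PLK3, a stress kinase, at 27.0 and 24.7 CPM with control guide 2, against 36.3 and 34.97 CPM with control guide 1 (adjusted p 0.0153), and FAS, a death receptor, at 25.4 and 27.7 CPM, against 34.8 and 33.0 CPM (adjusted p 0.0466). The list had 20 of 26 fitted changes below 0, a median of -0.16 and 11 genes at unadjusted p under 0.05 by edgeR. Of 11 tested heat shock chaperones HSP90AA1, the inducible cytosolic HSP90, was called, higher at 1765 and 1849 CPM with control guide 2, against 1445 and 1436 CPM with control guide 1 (log2 0.33 ± 0.05, adjusted p 0.00423). All 14 knockdown libraries, at 1659 to 1933 CPM, were above both control guide 1 libraries. HSPA5, the endoplasmic reticulum chaperone BiP (log2 0.20 ± 0.05, adjusted p 0.0495), was the 1 higher call among 18 integrated stress response genes, P4HA1, a collagen prolyl hydroxylase subunit (0.35 ± 0.06, 0.00953), among 18 tested hypoxia and glycolysis genes, and NR1D2, a nuclear receptor of the clock (0.34 ± 0.07, 0.0259), among 13 tested clock genes. HMOX1, which degrades haem (-0.36 ± 0.08, 0.0374), was the 1 lower call among 14 tested NRF2 and iron storage genes, and UBE2C, a mitotic ubiquitin-conjugating enzyme (-0.33 ± 0.07, 0.0460), among 23 G2/M genes, of which 20 had a fitted change below 0.

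Other lists had 0 calls by edgeR and 0 by DESeq2. At unadjusted p under 0.05 they held 1 of 13 tested ERK feedback genes (list median 0.01), 5 of 18 interferon response genes (0.06), 7 of 26 cholesterol and fatty acid synthesis genes (-0.12), 3 of 22 G1/S genes (0.05), 4 of 9 CDK inhibitors and pocket proteins (-0.09) and 0 of 10 pluripotency factors (-0.04). The 13 mitochondrially encoded mRNAs were also not called by either tool, with 2 at unadjusted p under 0.05, and all 13 had a fitted change above 0 with a median of 0.22. Summed, they came to 22800 and 23300 CPM with control guide 2, against 18500 and 21700 CPM with control guide 1, and to 18100 to 24400 CPM in the knockdown libraries. Across the lists 23 of 388 distinct tested genes were called by edgeR, beside 1.32% of all tested genes, and the unadjusted counts stand beside 14% of all tested genes. Further lists with calls held 8 of 31 matrix, 8 of 15 protease, 7 of 15 YAP and TEAD and 7 of 14 NRF2 genes at unadjusted p under 0.05. The same count was 8 of 18 for hypoxia, 7 of 18 for integrated stress response, 7 of 23 for G2/M and 4 of 11 for chaperone genes. It was 3 of 14 for cytokine, 3 of 13 for clock and 1 of 8 for NOTCH and WNT genes. DESeq2 did not call FOSB, FAS or HMOX1, and of listed genes that edgeR did not call it called, besides PDGFRB, TPM1 and TPM4 (contractile), ID2 (TGF-beta), COL4A1 and DCN (matrix), ADAMTS1 (proteases) and PFKP, ADM and PFKFB3 (hypoxia and glycolysis). The stability of these calls differed: those of HSPA5, FBN2, UBE2C, AJUBA, COL6A3, CCN2, HMOX1, ACTA2 and FAS were each lost in 10 or more of the 18 fits that left out 1 library, as were those of KLF11, KRTAP2-3 and LYSMD4.

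**Figure D3:**
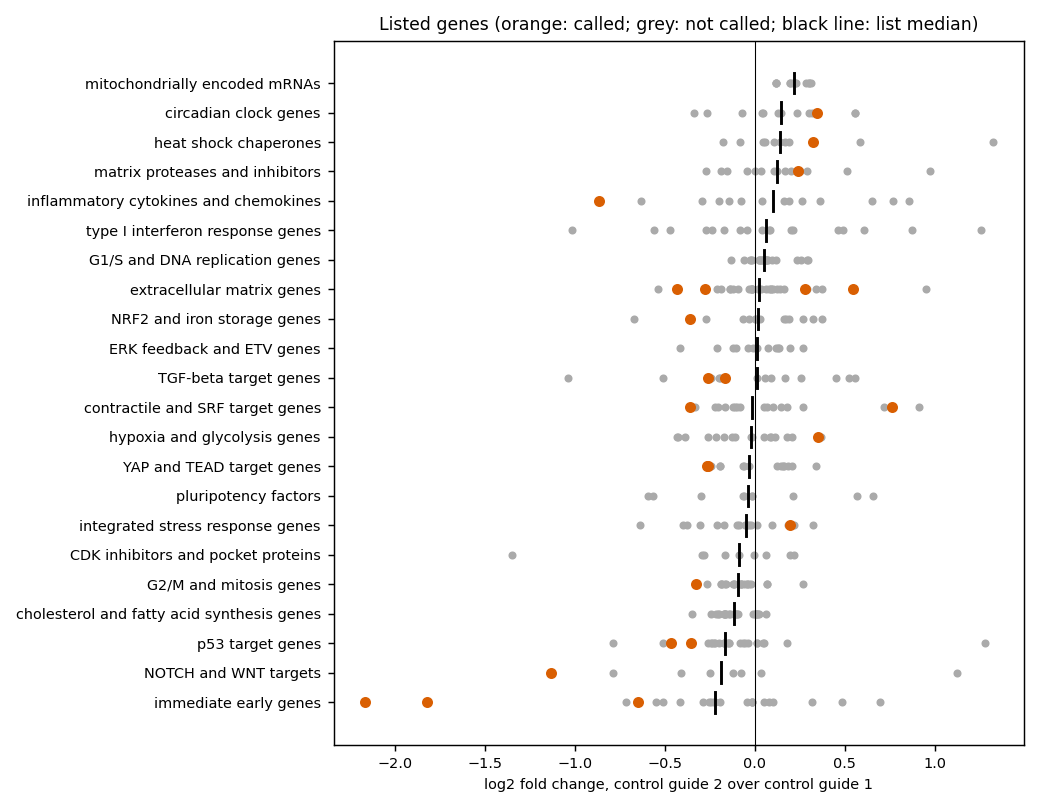
Log2 fold change of control guide 2 over control guide 1 (x axis) for the tested members of each list of a gene programme (y axis; lists of cell type markers are not drawn), with called genes in orange, others in grey and the list median as a black line. Among the lists drawn, immediate early genes have the lowest median (-0.22) and mitochondrially encoded mRNAs the highest (0.22).

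Markers of other cells a skin culture could hold gave 0 calls by edgeR and 0 by DESeq2, and at unadjusted p under 0.05 they gave 2 melanocyte and 1 leukocyte gene. Of 12 keratinocyte markers 6 were tested and together came to 60.3 to 62.3 CPM with control guide 2, against 60.4 to 68.2 CPM with control guide 1, while KRT5 and KRT1 had 0 counts in all 4 control libraries. Melanocyte markers (3 of 8 tested) came to 23.9 to 24.1 CPM with control guide 2, against 16.3 to 17.2 CPM with control guide 1, nearly all of it KIT. The fitted change of KIT was log2 0.64, while those of MITF (-0.67) and MLANA (-0.42) were below 0, and TYR, TYRP1, DCT and SOX10 had at most 3 counts in a control library. The 4 tested of 8 endothelial markers came to 79.0 to 83.4 CPM, against 83.9 to 91.2 CPM with control guide 1, with CDH5 and CLDN5 at 2 counts at most. Among leukocyte markers CD68 alone of 9 was tested, at 56.2 and 56.7 CPM with control guide 2, against 64.0 and 64.4 CPM with control guide 1, and CD3E and CD3D had 0 counts in the control libraries. What part other cells had in the differences was not tested.

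The genes targeted elsewhere in the series did not pass between the control guides, but their residual level depended on which control guide was the baseline. CDKN1A, the p21 inhibitor of cyclin-dependent kinases, was at 588 and 540.1 CPM with control guide 2, against 686 and 628 CPM with control guide 1 (log2 -0.22 ± 0.09, adjusted p 0.303). In the CDKN1A knockdown it was at 61.9% of control guide 2 and 53.1% of control guide 1. With the KDM1A and SPP1 guides CDKN1A was also below both control guides, at guide means of 462 to 515 CPM. The means of control guides 2 and 1 were 564 and 657 CPM. KDM1A, a histone demethylase, was at 120 and 110.2 CPM with control guide 2, against 118 and 125 CPM with control guide 1 (adjusted p 0.600), and its knockdown left 53.7% of control guide 2 and 50.9% of control guide 1. With the CDKN1A and SPP1 guides KDM1A had guide means of 107 to 124 CPM, around those of control guides 2 and 1 (115 and 121 CPM). SPP1, the secreted protein osteopontin, was at 63.9 and 72.7 CPM with control guide 2, against 65.9 and 55.2 CPM with control guide 1 (adjusted p 0.842). In the SPP1 knockdown it was at 56.2% of control guide 2 (adjusted p 0.0405) and 63.3% of control guide 1 (adjusted p 0.0681). By guide, SPP1 guide 1 lowered it past the threshold against both (adjusted p 0.0240 against control guide 2 and 0.0186 against control guide 1), and guides 2 and 3 did so against neither. The libraries of SPP1 guide 3 were split, with SPP1 at 63.0 CPM in replicate 1 and 21.6 CPM in replicate 2. With SPP1 guide 2 it was at 47.5 and 55.2 CPM. With the CDKN1A and KDM1A guides SPP1 was above both control guides, at guide means of 103 to 135 CPM. The means of control guides 2 and 1 were 68.3 and 60.6 CPM. Without both SPP1 guide 3 libraries the SPP1 knockdown was called against control guide 2 (adjusted p 1.32e-05) and control guide 1 (3.18e-05). TERT was at 2796 and 2539 CPM with control guide 2, against 2697 and 2879 CPM with control guide 1, and not called (adjusted p 0.745).

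Across the 185 called genes the knockdown libraries mostly lay on the side of control guide 2. A position was computed for each gene and library, 0 at the mean of control guide 1 and 1 at the mean of control guide 2 on the log2 CPM scale. The median position over genes ran from 0.549 (CDKN1A guide 2 replicate 1) to 1.12 (KDM1A guide 3 replicate 1) in the 14 knockdown libraries, with a median over libraries of 0.892. The lowest 3 libraries were both of CDKN1A guide 2, at 0.549 and 0.609, and SPP1 guide 3 replicate 2, at 0.676. By gene, the median position was closer to control guide 2 in 150 genes and closer to control guide 1 in 35, with 111 genes between 0 and 1, 70 beyond 1 and 4 below 0. All 14 knockdown libraries were closer to control guide 2 in 38 genes, FOS, FOSB, DKK1, PTGS2, SRF and HSP90AA1 among them, and closer to control guide 1 in 3. These are descriptions without a test, since the genes were chosen on the values that set 0 and 1. Without both SPP1 guide 3 libraries the median over libraries was 0.875.

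**Figure D4:**
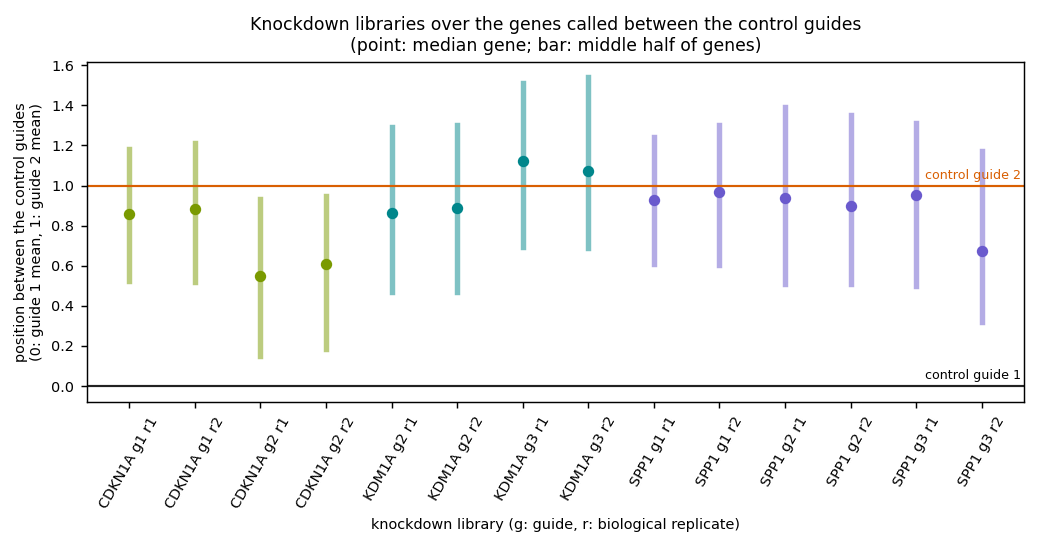
Position of each knockdown library between control guide 1 (0, black line) and control guide 2 (1, orange line) over the 185 genes called between them, with the median gene as a point and the middle of the genes, from the lower to the upper quartile, as a bar. The medians lie between 0.549 and 1.12, and the libraries of CDKN1A guide 2 are the lowest pair.

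Over all tested genes the same side was nearer by a small margin. The root mean square difference of a knockdown library from each of the 2 libraries of a control guide was averaged. This average was smaller for control guide 2 in 13 of 14 libraries and for control guide 1 in SPP1 guide 3 replicate 2. The margins were narrow, for example 0.491 against 0.540 log2 CPM for KDM1A guide 3 replicate 1 and 0.502 for both control guides in CDKN1A guide 2 replicate 2. Single libraries of control guide 2 differed from those of control guide 1 by 0.452 to 0.494. Replicates of 1 guide differed by 0.399 to 0.503, with 0.446 for control guide 2 and 0.460 for control guide 1. The means of the control guides differed by 0.347, a value between means of 2 libraries that does not compare with those between single libraries.

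The number of genes called for a knockdown followed the control guide it was set against. All 7 knockdown guides together gave 364 called genes (2.61%) against control guide 2, 158 higher and 206 lower, and 1391 (9.96%) against control guide 1, 689 higher and 702 lower. These comparisons share the 14 knockdown libraries. Without both SPP1 guide 3 libraries the counts were 490 against control guide 2 and 1910 against control guide 1. Against control guide 2 the count was 64 and 55 without replicates 1 and 2 of that control guide, and 621 and 548 without replicates 1 and 2 of SPP1 guide 3. Against control guide 1 it was 645 and 674 without replicates 1 and 2 of that control guide, and at most 1971 with any 1 library left out. The CDKN1A knockdown gave 570 calls against control guide 2 (4.08%) and 1090 against control guide 1 (7.80%), the KDM1A knockdown 1026 (7.35%) and 2248 (16.1%), and the SPP1 knockdown 747 (5.35%) and 1708 (12.2%). By single guide, the calls against control guide 2 and control guide 1 were 276 (1.98%) and 787 (5.63%) for CDKN1A guide 1, 596 (4.27%) and 720 (5.15%) for CDKN1A guide 2, 1153 (8.25%) and 2035 (14.6%) for KDM1A guide 2, and 841 (6.02%) and 1735 (12.4%) for KDM1A guide 3. For SPP1 guides 1, 2 and 3 they were 203 (1.45%) and 912 (6.53%), 689 (4.93%) and 1502 (10.8%), and 941 (6.74%) and 1329 (9.51%). The closest pair of counts was that of CDKN1A guide 2 and the widest ratio that of SPP1 guide 1. The difference between such counts was not tested. Without both SPP1 guide 3 libraries the calls against control guide 2 and control guide 1 were 922 and 1667 for the CDKN1A knockdown, 1377 and 2846 for KDM1A, and 732 and 2071 for SPP1. Single genes called between the control guides are given as a description with no test, since they were chosen for their difference between these control libraries. FOS differed in the knockdown guides by log2 -0.16 from control guide 2 and by -1.98 from control guide 1, COL7A1 by -0.05 and -1.23, and HSP90AA1 by 0.01 and 0.33. MAMDC2 lay farther from control guide 2, at -0.72, than from control guide 1, at 0.23, and so did KRT34, at -0.68 and 0.47.

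**Figure D5:**
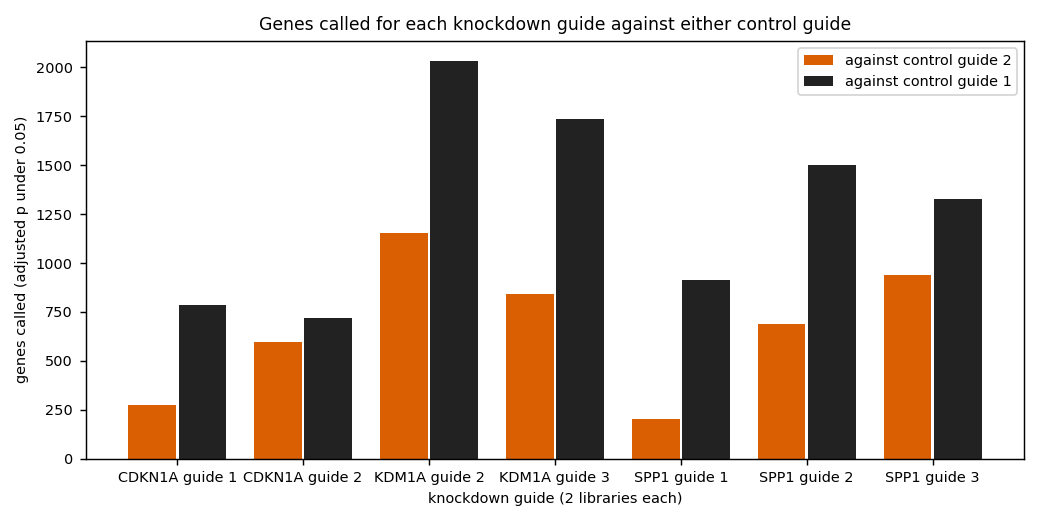
Number of genes called at an adjusted p under 0.05 (y axis, from 0) for each of the 7 knockdown guides (x axis) against control guide 2 (orange) and control guide 1 (black). The black bar is higher for all 7 guides, least so for CDKN1A guide 2 (596 and 720).

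The size of the difference between the control guides was within the range of that between guides against 1 target. In the same fit, CDKN1A guide 2 against guide 1 called 164 genes (1.17%), KDM1A guide 3 against guide 2 called 808 (5.78%), and the SPP1 guides called 293 (2.10%) for guide 2 against 1, 364 (2.61%) for guide 3 against 1 and 15 (0.107%) for guide 3 against 2. None of these sets a control library on either side, but the spread between libraries came from all 18, control libraries included. Leaving out 1 library gave 48 (without CDKN1A guide 1 replicate 1) to 332 (without SPP1 guide 3 replicate 1) for CDKN1A, and 270 (without KDM1A guide 2 replicate 2) to 1176 (without SPP1 guide 3 replicate 1) for KDM1A. For the SPP1 pairs it gave 35 to 600 and 71 to 2210 (each lowest without SPP1 guide 1 replicate 1 and highest without SPP1 guide 3 replicate 1), and 13 to 1511 (lowest without control guide 2 replicate 1, highest without SPP1 guide 3 replicate 1). Without both SPP1 guide 3 libraries the counts were 334 for CDKN1A, 1185 for KDM1A and 616 for SPP1 guide 2 against 1, and DESeq2 called 135 for SPP1 guide 3 against 2. The genes called between the control guides were often called there too: 36 in the CDKN1A pair (19.5% of the 185 and 22% of the 164), 59 in the KDM1A pair (31.9% and 7.30%), and 34, 33 and 3 in the SPP1 pairs (18.4%, 17.8% and 1.62% of the 185, and 11.6%, 9.07% and 20% of the calls there). In at least 1 of the 5 pairs 90 of the 185 were called (48.6%), where 9.06% of all tested genes were. Called genes were more abundant than tested genes, with a median log2 CPM of 5.85 where that of tested genes was 4.52, and the part of abundance in this share was not tested.

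Some calls are uncertain because near-identical transcripts share reads. MAGED4 was lower, at 41.9 and 38.2 CPM with control guide 2, against 72.8 and 66.8 CPM with control guide 1, and its copy MAGED4B was higher, at 73.1 and 70.9 CPM, against 45.7 and 42.5 CPM. Summed, the pair was at 115 and 109.1 CPM with control guide 2, against 119 and 109.3 CPM with control guide 1, so the sum did not separate the guides. The calls of THSD8 and G0S2 are uncertain for another reason, levels at or near 0 in control libraries. THSD8 was at 6.83 and 3.73 CPM with control guide 2 and listed at 0 in both control guide 1 libraries, with at least 2.30 CPM in each knockdown library. Its fitted log2 fold change of 9.24 rests on these values of 0. G0S2 had under 1 CPM in all 4 control libraries.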

How the data were processed

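The authors deposited 1 kallisto table per library, with kallisto and GRCh38 (hg38) named in the submitters' processing notes; its version, settings and transcriptome are not given in the sources. Per the file headers, the authors' estimated counts (expected counts, unscaled) were made by kallisto for 188753 transcripts and stand beside TPM and effective lengths. The deposited TPM were not used, and the effective lengths entered 1 alternative. Per the labels' protocols, poly(A) RNA was made into libraries with NEBNext Ultra II.

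Transcripts were matched to genes with GENCODE 29 (169754 matched, 89.93%; the rest held 2.51 to 2.63% of a library's counts and were left out). Summed counts were rounded. In R 4.3.3, edgeR 4.0.16 scaled libraries by TMM, kept 13968 genes (filterByExpr, count minimum 10) and fitted 9 guide coefficients to 18 libraries (9 residual degrees of freedom, common dispersion 0.00477). Adjusted p-values are Benjamini-Hochberg over these genes. SE come from the fold change and the F statistic. Log2 CPM of positions and distances carry a prior count of 2.

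The members and lists were chosen with earlier results of these data known. Named genes are, each way, the 12 with the largest change among called genes whose control libraries average a log2 CPM of 1 or more without overlap of the guides, the targeted genes, TERT, and from every list the called members (no more than 4, lowest p first) or, with 0 calls, the gene of lowest p; further list members are given for context. Same-numbered replicates did not deviate together across guides (36 correlations from -0.103 to 0.0708), so the numbers do not pair libraries and no block was used. Alternatives were RLE scaling, no filter, DESeq2 1.42.0, a length offset, a replicate block, the 4 control libraries alone, each library left out and, chosen after seeing the data, both SPP1 guide 3 libraries left out. Some listed genes are not reported here.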

Additional observations from a re-analysis of the deposited data

How the results depend on the processing

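Counts of called genes moved with the processing. The 43 called named genes kept their direction, which was likely beforehand, since the control guides did not overlap in them. For control guide 2 against control guide 1 (185 called), RLE scaling gave 183 and DESeq2 201 (141 shared). Without the filter on low counts the count was 590 (169 shared), and 680 for all knockdown guides against control guide 2, 507 for the CDKN1A pair, 730, 1114 and 715 for the SPP1 pairs 2 against 1, 3 against 1 and 3 against 2, and 69 for listed genes. DESeq2 gave 135 for SPP1 guide 3 against 2. The transcript length offset raised the common dispersion to 0.0121 and gave 27 (26 shared), 109 and 571 for all knockdown guides against control guides 2 and 1, 73, 304, 81, 88 and 5 for the CDKN1A, KDM1A and SPP1 pairs, and 7 listed genes. The 4 control libraries alone gave 75 (50 shared) and 11 listed genes. Without both SPP1 guide 3 libraries the counts were 454, 334 for the CDKN1A pair, 616 for SPP1 guide 2 against 1 and 59 listed genes, at a common dispersion of 0.00329. The cause of the other moves was not tested.

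The replicate block gave 129 (128 shared) and 15 listed genes; the numbers do not pair libraries.

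Leaving out 1 library gave 26 to 454 for the control guides, 55 to 621 and 645 to 1971 for all knockdown guides against control guides 2 and 1, 48 to 332 for the CDKN1A pair, 270 to 1176 for KDM1A, 35 to 600, 71 to 2210 and 13 to 1511 for SPP1, 3 to 60 for listed genes and 0.814 to 1.01 for the median position. Such fits assume that the lone library of a guide varies like the others.

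Of the 43 called named genes, the call was kept by 42 with RLE scaling, 41 without the filter, 33 with DESeq2, 14 with the length offset, 31 with the block and 21 with the controls alone, and the direction by all 43. The uncalled SALL4 reversed to log2 0.12 with the length offset, and TERT ran from -0.135 to 9.53e-05 with 1 library left out, the highest without control guide 2 replicate 2. With 2 libraries per guide, small differences in genes of low count were not detectable.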

Other observations

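Several genes outside the rule for named genes had small adjusted p-values and were chosen here after their values were seen. AMIGO2, a neuronal adhesion protein, was at 271 and 285 CPM with control guide 2, against 462 and 454 CPM with control guide 1 (edgeR adjusted p 4.67e-06). NPTX1, a secreted pentraxin related to PTX3, was higher, at 77.2 and 71.2 CPM with control guide 2, against 45.7 and 46.95 CPM with control guide 1 (adjusted p 0.000288). PPME1, a methylesterase of protein phosphatase 2A, was at 92.2 and 92.9 CPM, against 63.8 and 59.8 CPM with control guide 1 (adjusted p 0.000366), and TNFRSF10D, a decoy receptor for TRAIL, at 473 and 477 CPM, against 343 and 362 CPM (adjusted p 0.000583). The surface proteins ITGB3, a vitronectin receptor subunit, and CD274, the ligand PD-L1, were lower. ITGB3 was at 22.3 and 22.3 CPM with control guide 2, against 35.8 and 34.1 CPM with control guide 1 (adjusted p 0.00589), and CD274 at 70.2 and 69.7 CPM, against 107 and 106 CPM (adjusted p 0.0225).

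Genes of the secretory pathway stood among the higher calls beside HSPA5 and P4HA1. HSP90B1, the HSP90 of the endoplasmic reticulum, was at 1151 and 1231 CPM with control guide 2, against 997 and 989.7 CPM with control guide 1 (adjusted p 0.0464). The calcium-binding protein CALU was at 1218 and 1273 CPM, against 1050 and 1043 CPM with control guide 1 (adjusted p 0.0374), and ASPH, an aspartyl hydroxylase of the endoplasmic reticulum, at 782 and 809 CPM, against 612 and 639 CPM (adjusted p 0.00929). MCFD2, a cargo receptor subunit, was at 646 and 667 CPM with control guide 2, against 502 and 527 CPM with control guide 1 (adjusted p 0.00929). These genes were picked for their change and carry no test as a group.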
